A study of Mus musculus with 12 samples.

Results

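The genes described here are 6 CXC chemokine ligands and 4 chemokine receptors, namely Cxcl1, Cxcl2, Cxcl3, Cxcl10, Cxcl14, Cxcl16, Cxcr1, Cxcr2, Cxcr4 and Cx3cr1. They were listed by name, with earlier results of these data known, and they are 10 of the 54532 genes in the count table. All 10 were among the 14894 genes tested, which had more than 0.5 CPM (counts scaled to the total of the library) in at least 2 of the 12 libraries. Marrow from wild-type mice of the C57BL/6 strain was kept for 5 days in RPMI medium with serum, GM-CSF and IL-6, cytokines that drive myeloid cells with suppressive activity in culture. They received DMSO as vehicle, 10 µM indole-3-propionic acid (IPA, a bacterial product of tryptophan) or 50 µM IPA. The labels have both IPA and medium renewed at day 3, and the methods describe a different schedule of medium changes. RNA was sequenced in 4 libraries per group, and the comparisons ask how each dose changed the transcripts that formed during the culture. The labels do not give the age or number of the mice and do not say whether libraries of a group came from separate animals, so p-values measure the spread between these samples, which may be technical. The labels name no sort of the cells, and in such a mixture fewer cells of a type and less RNA per cell cannot be told apart.

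Chemokines are small secreted proteins that direct the movement of leukocytes through receptors coupled to inhibitory G proteins. CXCL1, CXCL2 and CXCL3 carry the ELR motif and call neutrophils through CXCR2, which also moves neutrophils out of the marrow, whereas CXCR4, the receptor of CXCL12, holds them in it. CXCL10 is an interferon-induced ligand of CXCR3, CXCL14 is a ligand made in many tissues, and CXCL16 is made as a membrane-bound protein that binds CXCR6. CXCR1 binds ELR-positive ligands in part, and CX3CR1, the fractalkine receptor, belongs to the related CX3C family and marks patrolling monocytes and many macrophages.

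Cxcl3, Cxcl1 and Cxcl2 lie in this order on the plus strand of chromosome 5 (GENCODE M21, GRCm38), Cxcl3 at chr5:90786103-90789600, Cxcl1 at chr5:90891241-90893115 and Cxcl2 at chr5:90903871-90905938. Their promoters are shown because these 3 ligand genes hold the same binding motif of NF-kB, the factor that drives inflammatory ligands, although their transcripts had different values across the groups, given below. Each stretch is the 120 bases before the RefSeq start (GRCm38.p6, plus strand), at chr5:90891125-90891244 for Cxcl1, chr5:90903779-90903898 for Cxcl2 and chr5:90785981-90786100 for Cxcl3. Capitals mark matches to the kappaB motif and to TATAAA.
Cxcl1: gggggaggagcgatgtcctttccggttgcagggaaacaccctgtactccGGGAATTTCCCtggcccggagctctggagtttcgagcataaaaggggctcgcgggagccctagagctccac
Cxcl2: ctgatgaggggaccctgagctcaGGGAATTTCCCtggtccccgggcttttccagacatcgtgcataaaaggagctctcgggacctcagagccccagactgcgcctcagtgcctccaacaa
Cxcl3: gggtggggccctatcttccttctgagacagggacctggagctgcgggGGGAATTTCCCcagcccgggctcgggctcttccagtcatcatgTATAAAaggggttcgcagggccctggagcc

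Counting back from -1 at the base before the start, the run GGGAATTTCC began at -71 in Cxcl1, at -97 in Cxcl2 and at -73 in Cxcl3, and in each gene the motif also matched on the other strand, shifted by a base. A kappaB match stood in 4.51% of the 32851 RefSeq promoters of the same 300-base window (250 bases before to 50 after the start, both strands), and TATAAA in 13.6%. Of the 9 members with an entry, Cxcl10 also held kappaB matches, 2 in number, together with 1 AP-1 match (TGANTCA, 7.81% of promoters) and 1 interferon response element (ISRE, 3.44%). Cxcl14 held 1 interferon response element, Cxcr4 held TATAAA, and none of the motifs searched matched in Cxcr1, Cxcr2 or Cx3cr1. The other motifs searched were TTNCNNAA, the C/EBP motif (40.7% of promoters), GAGGAAGT, the PU.1 motif (3.2%), and TGATGNAA, the amino acid response element (3.97%). TTNCNNAA matched in Cxcl2, Cxcl10 and Cxcr4, and the other pair matched in no member. Cxcl16 has no entry. A match is a description of letters in this window.

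Library totals lay between 22417710 and 26442653 reads in vehicle, 20848854 and 28038612 with 10 µM IPA, and 20451312 and 26925143 with 50 µM IPA. Levels are given below as CPM after TMM normalization over the 12 libraries. Fold changes and p-values adjusted over all tested genes come from edgeR's quasi-likelihood test on the 8 libraries compared, with a call at an adjusted p under 0.05. Standard errors (SE) were calculated from the fold change and F statistic of that test, and 95% confidence intervals from those SE. No member was called with 10 µM IPA (0 by edgeR and by limma-voom, 1 by DESeq2, and 2 at an unadjusted p under 0.05 in edgeR), for which edgeR called 0.329% of all tested genes higher and 0.0806% lower. Against vehicle, 50 µM IPA left 2 of the 10 members higher, Cxcl3 and Cxcl14, and 4 lower, Cxcl16, Cxcr2, Cxcr4 and Cx3cr1. Of all tested genes 7.00% were called higher and 6.50% lower in that comparison. Against 10 µM IPA, 50 µM IPA left 1 member higher, Cxcl3, and 3 lower, Cxcl16, Cxcr2 and Cx3cr1, where 7.52% of all tested genes were called higher and 7.85% lower. The comparisons of both doses with vehicle share the 4 vehicle libraries. In this type of culture, the paper found viability slightly reduced at the higher dose, which it calls supraphysiological, but not at the lower dose. For that reason the paper centred its expression analysis on the lower dose. The part of reduced viability in the differences called at the higher dose was not tested.

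**Figure D1:**
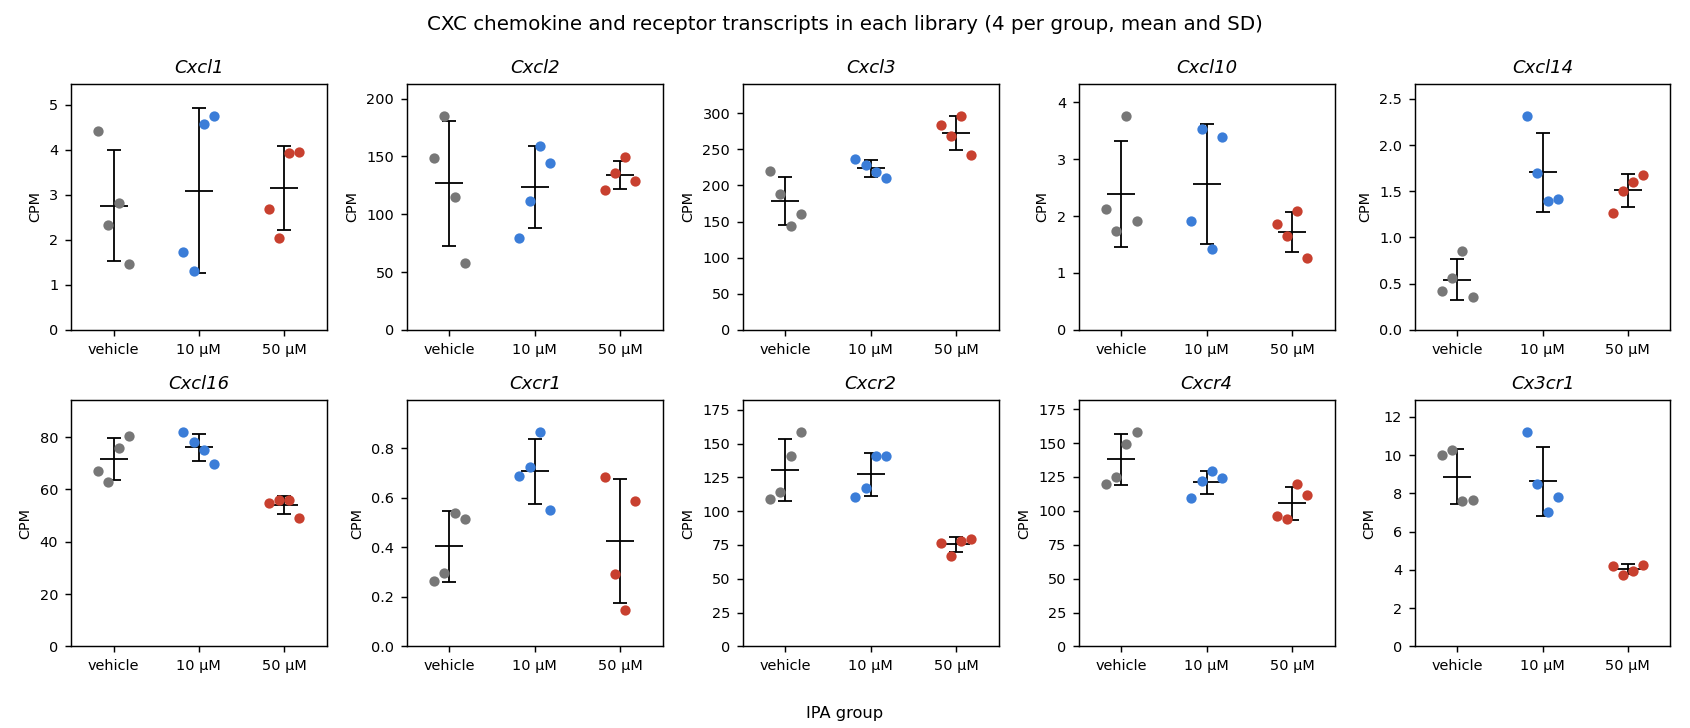
Points are the CPM (y axis, linear from 0) of each of the 10 genes in the 4 libraries of each IPA group (x axis), and bars are the mean and SD. Cxcl3 was highest and Cxcr2, Cxcl16 and Cx3cr1 were lowest in all 4 libraries with 50 µM IPA, while Cxcl14 was lowest in the 4 vehicle libraries and Cxcl1 and Cxcl2 overlapped between all groups.

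Per length of exon, the transcripts fell into an abundant and a scarce set. In vehicle, Cxcr4 had 76.3 ± 10.3 RPKM, which is CPM per kilobase of exon (SD, n = 4), Cxcl2 61.2 ± 26.1, Cxcl3 50.9 ± 9.50, Cxcr2 42.8 ± 7.53 and Cxcl16 23.7 ± 2.64. The ranges of Cxcr4 and Cxcl2, of Cxcl2 and Cxcl3 and of Cxcl3 and Cxcr2 overlapped, and Cxcl16, with at most 26.7 RPKM, lay below the lowest Cxcr2 value of 35.8. Cxcl1 at 1.47 ± 0.661 RPKM overlapped both Cx3cr1 at 1.97 ± 0.320 and Cxcl10 at 1.06 ± 0.414, and the lowest Cx3cr1 library, 1.69 RPKM, lay just above the highest Cxcl10 library, 1.67 RPKM. Cxcl14 at 0.298 ± 0.121 and Cxcr1 at 0.271 ± 0.0959 RPKM also overlapped and lay below the lowest Cxcl10 value of 0.774. With 50 µM IPA, Cxcl3 had the highest mean level of the 10 genes, 77.9 ± 6.66 RPKM, overlapping Cxcl2 at 64.7 ± 5.84. Its lowest library, 69.2 RPKM, lay above the highest Cxcr4 library, 66.3 RPKM, whereas in vehicle the highest Cxcl3 library, 62.7 RPKM, lay below the lowest Cxcr4 library, 66.2 RPKM. Exon lengths joined all annotated transcripts, between 1491 bases for Cxcr1 and 4505 for Cx3cr1, so a level is low where long isoforms were not made.

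**Figure D2:**
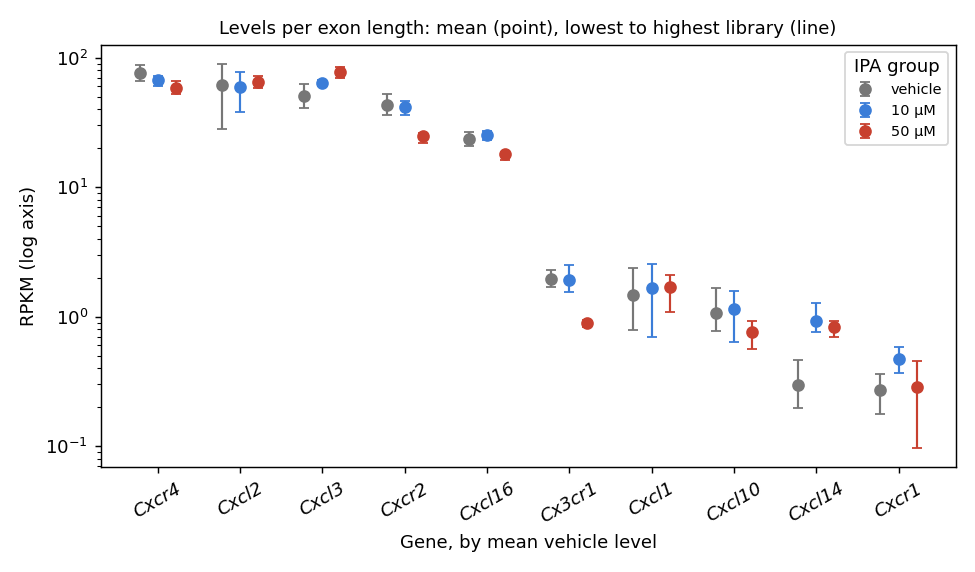
Points are mean RPKM on a log axis (y axis) for the 10 genes ordered by their vehicle level (x axis), in the 3 IPA groups, and lines run from the lowest to the highest of 4 libraries. Cxcr4, Cxcl2, Cxcl3, Cxcr2 and Cxcl16 had at least 16.3 RPKM in every library and the other 5 genes at most 2.54.

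Cxcl3, a CXCR2 ligand, was the ligand with the most reads and rose at the higher dose. Its levels were 219, 188, 144 and 159.9 CPM in vehicle replicates 1 to 4, 237, 228, 219 and 211 CPM with 10 µM IPA, and 283, 268, 296 and 242 CPM with 50 µM IPA. The 50 µM libraries lay above every other library, and the 10 µM libraries reached from the upper part of the vehicle range to above it. The group means were 178 ± 33.2, 223 ± 11.2 and 273 ± 23.3 CPM (SD, n = 4). Against vehicle, 50 µM IPA gave a log2 fold change of 0.62 (SE 0.12, 1.54-fold, adjusted p = 0.0034), and against 10 µM IPA one of 0.29 (SE 0.070, 1.22-fold, adjusted p = 0.0108). The latter was not called with all 12 libraries in one fit (adjusted p = 0.0852). At 10 µM IPA the log2 fold change of Cxcl3 was 0.33 (SE 0.11, adjusted p = 0.353), which did not pass.

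Cxcl2, another ELR-positive ligand of CXCR2, had no called difference. Levels of Cxcl2 were 149, 185, 115 and 58.0 CPM in vehicle, 79.3, 112, 159 and 144 CPM with 10 µM IPA, and 121, 136, 149 and 129 CPM with 50 µM IPA. The vehicle libraries spanned the values of both IPA groups, and the 50 µM libraries lay closest together (mean 134 ± 12.1 CPM, against 127 ± 54.0 in vehicle). At 50 µM the log2 fold change of Cxcl2 was 0.09 with a 95% confidence interval from -0.43 to 0.61 (edgeR, adjusted p = 0.852). The ratio of Cxcl3 to Cxcl2 CPM within a library was between 1.02 and 2.76 in vehicle and between 1.88 and 2.34 with 50 µM IPA, so these ranges overlapped. The Cxcl2 and Cxcl3 transcripts share 126 windows of 50 bases, 5.84% of those of Cxcl2 and 3.51% of those of Cxcl3, and reads from these stretches cannot be assigned to either gene with certainty.

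Cxcl1, the remaining ELR-positive member, was scarce and variable. Its levels were 4.42, 2.34, 2.82 and 1.47 CPM in vehicle, 1.74, 1.31, 4.59 and 4.76 CPM with 10 µM IPA, and 2.69, 2.05, 3.93 and 3.95 CPM with 50 µM IPA, from 27 to 122 reads per library. The groups overlapped throughout, and 10 µM replicates 1 and 2 were low for both Cxcl1 and Cxcl2 while replicates 3 and 4 were high for both. The log2 fold change of Cxcl1 at 50 µM was 0.19 (95% confidence interval from -0.49 to 0.88, edgeR adjusted p = 0.747). It shares no 50-base window with Cxcl2 or Cxcl3.

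Cxcl14 was the least abundant ligand in vehicle and had the largest fold change of the 10 genes. It had 0.416, 0.557, 0.851 and 0.358 CPM in vehicle, 2.32, 1.69, 1.39 and 1.42 CPM with 10 µM IPA, and 1.27, 1.501, 1.60 and 1.68 CPM with 50 µM IPA. Every IPA library lay above every vehicle library, and the doses overlapped each other. The reads behind these values were few, 9 to 19 per vehicle library, 31 to 64 with 10 µM and 26 to 41 with 50 µM, and only 2 vehicle libraries were over the CPM minimum. At 50 µM the log2 fold change of Cxcl14 was 1.48 (SE 0.36, 2.80-fold, edgeR adjusted p = 0.0154). At 10 µM IPA the log2 fold change was 1.65 (SE 0.36, 3.14-fold), with an adjusted p of 0.0898 in edgeR. In that comparison Cxcl14 was called by DESeq2 (adjusted p = 0.0022), without the filter on low counts (0.0398) and with all 12 libraries in one fit (0.0237). Between the doses its log2 fold change was -0.17 (95% confidence interval from -0.76 to 0.41, edgeR adjusted p = 0.733). Without overlap between groups, 2 members were higher with 10 µM IPA than in vehicle, Cxcl14 and Cxcr1, and 0 were lower, where 3.56% of all tested genes were higher and 2.56% lower without overlap.

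Cxcl16, the membrane-bound ligand of CXCR6, fell at the higher dose. Its levels were 67.2, 63.0, 75.8 and 80.6 CPM in vehicle, 81.8, 78.0, 75.1 and 69.6 CPM with 10 µM IPA, and 54.7, 56.1, 56.1 and 49.1 CPM with 50 µM IPA. All 50 µM libraries lay below all others, while vehicle and 10 µM overlapped. The log2 fold change of Cxcl16 was -0.40 against vehicle (SE 0.091, 0.76-fold, edgeR adjusted p = 0.0111) and -0.49 against 10 µM IPA (SE 0.074, 0.71-fold, edgeR adjusted p = 0.0003). Cxcl16 lies on chromosome 11 (chr11:70453983-70459984, minus strand) and shares 552 exon bases with Zmynd15 on the opposite strand. Zmynd15 had 1.63 to 3.40 CPM in vehicle and 2.25 to 4.95 CPM with 50 µM IPA, far below Cxcl16, and whether the reads were counted by strand is not stated.

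Cxcl10, the interferon-induced ligand, had no called difference. Its levels were 2.12, 1.74, 3.76 and 1.91 CPM in vehicle, 1.92, 3.53, 1.43 and 3.39 CPM with 10 µM IPA, and 1.86, 1.65, 2.09 and 1.26 CPM with 50 µM IPA. The 50 µM libraries were the most uniform, and the groups overlapped. At 50 µM the log2 fold change of Cxcl10 was -0.47 against vehicle (95% confidence interval from -1.10 to 0.17, edgeR adjusted p = 0.334), with 30 to 84 reads in the libraries compared. Cxcl10 (chr5:92346638-92348889, minus strand) shares 133 exon bases with Art3 on the opposite strand, which had at most 0.260 CPM in any library.

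Among the receptors, Cxcr2 fell with 50 µM IPA. It had 109, 114, 140.5 and 158 CPM in vehicle, 110.3, 117, 141 and 141 CPM with 10 µM IPA, and 76.6, 67.1, 78.3 and 79.6 CPM with 50 µM IPA. The 50 µM libraries lay together below all others, and the 10 µM libraries lay within the vehicle range. The mean fell from 131 ± 23.0 CPM in vehicle to 75.4 ± 5.68 CPM (SD, n = 4), a log2 fold change of -0.79 (SE 0.11, 0.58-fold, edgeR adjusted p = 0.0006). Against 10 µM IPA the log2 fold change of Cxcr2 was -0.75 (SE 0.089, 0.59-fold). At 10 µM it was -0.04 with a 95% confidence interval from -0.31 to 0.23. Cxcr2 is on chromosome 1 (chr1:74153989-74161246, plus strand).

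Cxcr1, on the same chromosome as Cxcr2 (chr1:74191785-74194631, minus strand), was near the limit of detection. It had 0.265, 0.297, 0.537 and 0.517 CPM in vehicle, 0.688, 0.726, 0.865 and 0.549 CPM with 10 µM IPA, and 0.684, 0.293, 0.146 and 0.588 CPM with 50 µM IPA. All 10 µM libraries lay above all vehicle libraries, with 7 to 13 reads in vehicle and 12 to 23 with 10 µM IPA, and the 50 µM libraries spanned the vehicle range and the lowest 10 µM library, with the remaining 10 µM libraries above them. At 10 µM the log2 fold change of Cxcr1 was 0.81 (95% confidence interval from -0.09 to 1.71, edgeR adjusted p = 0.631), and it was not called. Only 2 libraries in vehicle and 2 with 50 µM IPA were over the CPM minimum. Cxcr1 and Cxcr2 transcripts share no 50-base window.

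Cxcr4, the retention receptor, was lower with 50 µM IPA by a smaller step. It had 119.7, 125, 149 and 158 CPM in vehicle, 109, 122, 129 and 124 CPM with 10 µM IPA, and 96.2, 94.3, 119.8 and 112 CPM with 50 µM IPA. The highest 50 µM library was just above the lowest vehicle library, and the 10 µM values lay between the group means or near them. The log2 fold change of Cxcr4 against vehicle was -0.38 (SE 0.11, 0.77-fold, edgeR adjusted p = 0.0323). This call was kept in 4 of the 8 fits that leave out a library, with an adjusted p of 0.107 without vehicle replicate 3 and of 0.0804, 0.0944 and 0.0601 without 50 µM replicates 1, 2 and 4. Against 10 µM IPA the log2 fold change of Cxcr4 was -0.20 (adjusted p = 0.132), and 0.0405 without 50 µM replicate 3. The ratio of Cxcr2 to Cxcr4 CPM within a library was 0.943 ± 0.041 in vehicle, 1.05 ± 0.079 with 10 µM IPA and 0.718 ± 0.059 with 50 µM IPA (SD, n = 4). The 50 µM ratios, between 0.653 and 0.796, did not overlap those of vehicle, between 0.913 and 1.00.

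Cx3cr1 had the largest fall of the 10 genes. Its levels were 9.98, 10.2, 7.61 and 7.63 CPM in vehicle, 11.2, 8.47, 7.03 and 7.83 CPM with 10 µM IPA, and 4.20, 3.73, 3.93 and 4.28 CPM with 50 µM IPA. The 50 µM libraries were nearly equal and far below every other library. The log2 fold change of Cx3cr1 was -1.13 against vehicle (SE 0.15, 0.46-fold, edgeR adjusted p = 0.0003) and -1.10 against 10 µM IPA (SE 0.16, 0.47-fold, edgeR adjusted p = 0.0003). At 10 µM it was -0.04 (95% confidence interval from -0.40 to 0.32). Cx3cr1 (chr9:119901616-120069879, minus strand) shares 78 exon bases with the antisense gene Gm33858, which had at most 1.19 CPM in any library. Without overlap between the groups, 2 members were higher and 3 lower with 50 µM IPA than in vehicle, where 9.45% and 10.5% of all tested genes were higher and lower, and 1 was higher and 3 lower than with 10 µM IPA, where 9.41% and 10.9% of all tested genes were.

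**Figure D3:**
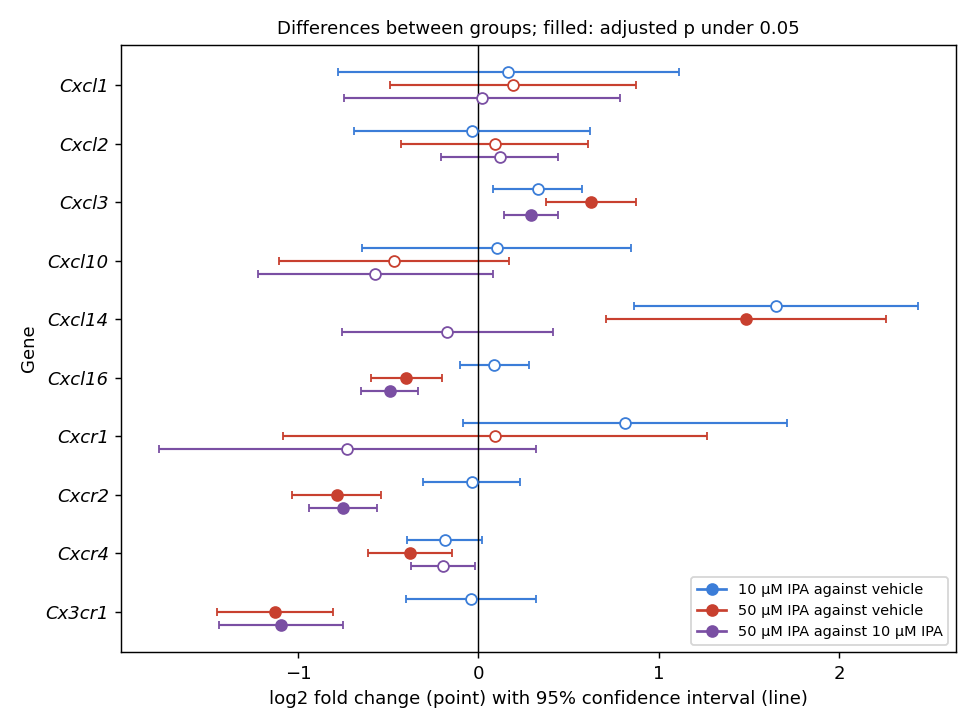
Points are log2 fold changes (x axis) of the 10 genes (y axis) in the 3 comparisons, lines are 95% confidence intervals that are not adjusted for the number of genes, and filled points had an adjusted p under 0.05. The 50 µM comparisons held 6 and 4 filled points, and the 10 µM comparison held 0.

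The median log2 fold change of the 10 members was 0.09 at 10 µM and -0.14 at 50 µM against vehicle, and -0.34 between the doses, beside medians of -0.01, 0.01 and 0.01 over all tested genes. Fits that left out a library kept the calls of Cxcl3, Cxcl14, Cxcl16, Cxcr2 and Cx3cr1 at 50 µM against vehicle in 8 of 8 cases each. The same held for Cxcl3, Cxcl16, Cxcr2 and Cx3cr1 between the doses.

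Markers of several cell types that carry these receptors differed between the groups, and their counts are read beside shares of all tested genes. At 50 µM against vehicle 7.00% of all tested genes were called higher and 6.50% lower. Between the doses these shares were 7.52% and 7.85%, and with 10 µM IPA 0.329% and 0.0806%. Neutrophils carry CXCR2 and CXCR4. Of 13 neutrophil markers 7 were called lower and 1 higher with 50 µM IPA than in vehicle. The primary granule genes Elane (log2 fold change -1.29) and Mpo (-1.02) were among the lower, and Mmp9 was higher (0.33). Ly6g (0.24), Mmp8 (0.16), S100a8 (-0.37), S100a9 (-0.37) and Retnlg (-0.27) were not called. The calls of Csf3r and Cebpe, both lower, were kept in 4 and 5 of 8 fits that leave out a library (highest adjusted p of 0.0889 without 50 µM replicate 2 and of 0.0906 without vehicle replicate 3). The summed level of the 13 markers was 22114 to 30710 CPM in vehicle, 20938 to 23985 CPM with 10 µM IPA and 16463 to 22120 CPM with 50 µM IPA, and the highest 50 µM library and the lowest vehicle library were nearly equal. Monocytes carry CX3CR1, and 4 of 9 monocyte markers were lower with 50 µM IPA, including Ccr2 (-0.76) and Vcan (-0.74), and 0 higher. Their summed level was 2577 to 3032 CPM in vehicle, 2954 to 3035 CPM with 10 µM IPA and 1995 to 2278 CPM with 50 µM IPA. Of 9 macrophage markers 2 were lower, Apoe (-1.37) and Mrc1 (-0.69), and 2 higher with 50 µM IPA, among them Adgre1 (0.68). Their summed level was 835 to 1012 CPM in vehicle, 1138 to 1272 CPM with 10 µM IPA and 1046 to 1091 CPM with 50 µM IPA, and Adgre1 alone had a mean of 203 CPM in vehicle and 324 CPM with 50 µM IPA. Between the doses, where Cx3cr1 was also lower, 6 of the 9 macrophage markers were lower and 1 higher. Of the lower, C1qb and C1qc were kept in 4 and 7 of 8 fits that leave out a library. With 10 µM IPA 3 of the 9 macrophage markers were higher than in vehicle and 0 lower, each call kept in at most 2 of 8 such fits. Of 8 dendritic cell markers 3 were higher with 50 µM IPA than in vehicle and 0 lower, with a summed level of 689 to 746 CPM in vehicle, 724 to 864 CPM with 10 µM IPA and 705 to 883 CPM with 50 µM IPA. None of those 3 calls, of Ccr7, Clec9a and Zbtb46, was kept in all 8 fits that leave out a library (6, 4 and 3 fits). By flow cytometry of this type of culture, the paper found neutrophils unchanged by IPA and fewer Ly6C-high monocytes as the dose rose. The part of these cell types in the levels of the members was not tested.

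**Figure D4:**
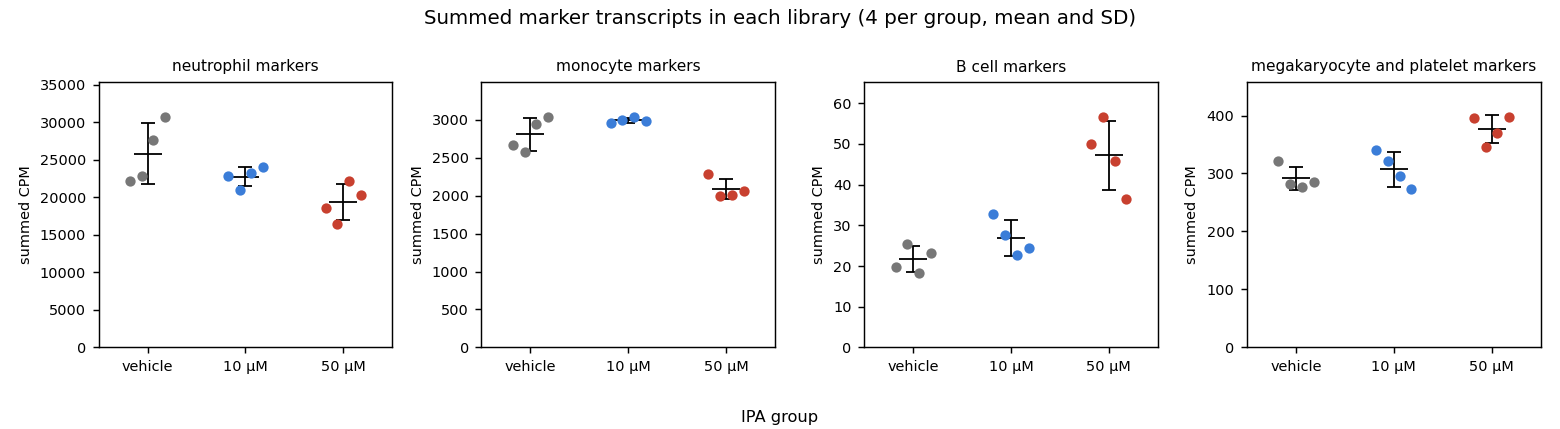
Points are the summed CPM (y axis, linear from 0) of 4 marker lists in the 4 libraries of each IPA group (x axis), and bars are the mean and SD. With 50 µM IPA the neutrophil and monocyte sums were lower and the B cell and platelet sums were higher in mean level than in the other groups. Of the 5 platelet markers 2, the chemokines Pf4 and Ppbp, were called higher at 50 µM against vehicle, and the others were not called.

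Of 10 further CXC and CX3C ligands 4 were tested, and all 4 were called higher with 50 µM IPA than in vehicle, where 7.00% of all tested genes were called higher. Ppbp, the platelet ligand of CXCR2, had 104, 95.4, 83.1 and 83.0 CPM in vehicle and 152, 131, 137 and 156 CPM with 50 µM IPA (log2 fold change 0.66, SE 0.090, edgeR adjusted p = 0.0004). Pf4, platelet factor 4, rose from a mean of 102 to 136 CPM (log2 fold change 0.43, SE 0.10). It had 134 CPM with 10 µM IPA, where the log2 fold change of Pf4 of 0.40 did not pass (edgeR adjusted p = 0.237). Cxcl5, an ELR-positive ligand, rose from 1.18 to 2.36 CPM (log2 fold change 1.01, SE 0.26). That call of Cxcl5 was kept in 5 of the 8 fits that leave out a library, with a highest adjusted p of 0.0772 without 50 µM replicate 2.

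Cx3cl1, the ligand of CX3CR1, moved opposite to its receptor. It had 9.87, 7.01, 9.90 and 9.74 CPM in vehicle, 12.9, 12.4, 9.40 and 8.19 CPM with 10 µM IPA, and 16.5, 16.4, 13.5 and 14.5 CPM with 50 µM IPA. All 50 µM libraries of Cx3cl1 lay above all others, with a log2 fold change of 0.75 against vehicle (SE 0.13, edgeR adjusted p = 0.0024). Against 10 µM IPA the log2 fold change of Cx3cl1 was 0.51 (edgeR adjusted p = 0.0226), a call kept in 4 of 8 fits without a library (highest adjusted p of 0.0699 without 10 µM replicate 3). The ratio of Cx3cl1 to Cx3cr1 CPM within a library, compared between groups only, was 1.06 ± 0.289 in vehicle, 1.25 ± 0.188 with 10 µM IPA and 3.79 ± 0.465 with 50 µM IPA (SD, n = 4).

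**Figure D5:**
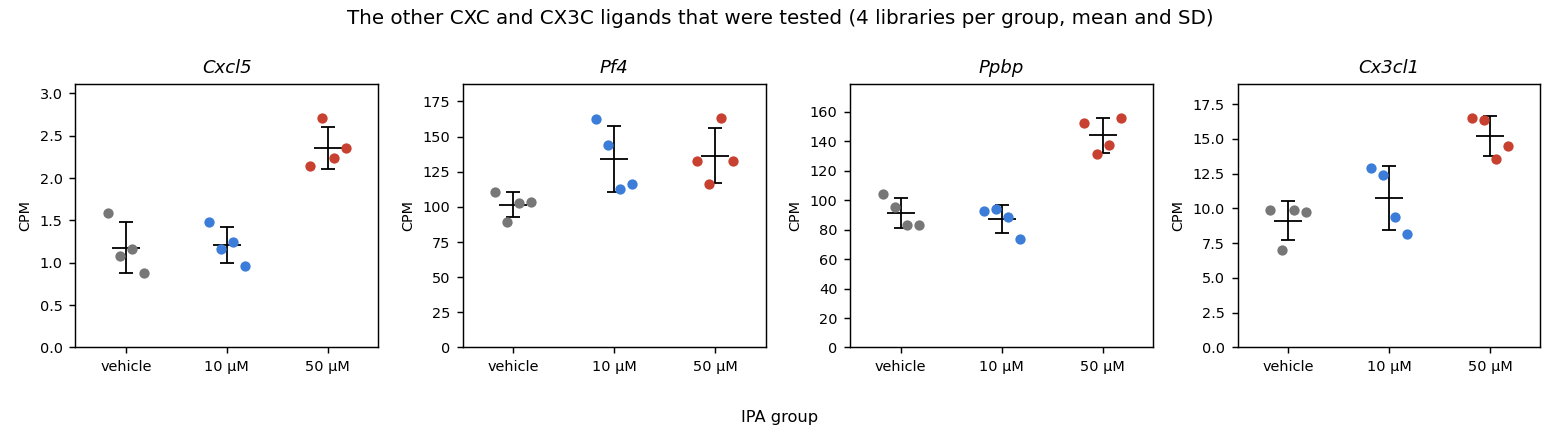
Points are the CPM (y axis, linear from 0) of the 4 other ligands that were tested, in the 4 libraries of each IPA group (x axis), and bars are the mean and SD. The 50 µM libraries of Cxcl5, Ppbp and Cx3cl1 lay above all other libraries, and those of Pf4 lay above vehicle and overlapped 10 µM IPA.

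Pf4 and Ppbp are also 2 of the 5 megakaryocyte and platelet markers, and the other 3, Itga2b (log2 fold change 0.04), Gp9 (-0.36) and Gp1ba (-0.37), were not called at 50 µM. Among further receptors, Cxcr5, a B cell receptor, had 1.04 to 1.84 CPM in vehicle and 1.47 to 1.99 CPM with 50 µM IPA, and was not called (log2 fold change 0.20, edgeR adjusted p = 0.691). All 5 B cell markers were called higher with 50 µM IPA than in vehicle, where 7.00% of all tested genes were called higher. Their summed level was 18.3 to 25.3 CPM in vehicle and 36.5 to 56.6 CPM with 50 µM IPA. Cxcr6, the receptor of CXCL16, had 0.269 to 1.23 CPM in vehicle and 0.378 to 0.781 CPM with 50 µM IPA, and was not called. The partners of other members were scarce. Cxcl12, the ligand of CXCR4, had at most 4 reads in any library, and Cxcr3, the receptor of CXCL10, at most 12. Cxcl9 and Cxcl11, the other ligands of CXCR3, had at most 2 and 6 reads, and the atypical receptors Ackr1, Ackr2, Ackr3 and Ackr4 at most 20. Cxcl13, which draws B cells, had 9, 7, 2 and 7 reads in vehicle and 0 reads in the 4 libraries with 50 µM IPA. Cxcl15 and Cxcl17 had 0 reads in all 12 libraries.

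For intracellular partners of the receptors, calls at 50 µM against vehicle stand beside 7.00% of all tested genes called higher and 6.50% called lower. Of 18 genes of G protein and PI3K gamma signalling, 0 were called higher and 1 lower with 50 µM IPA than in vehicle, the exchange factor Vav1 (log2 fold change -0.34), and the median log2 fold change was 0.01. Between the doses 7.52% of all tested genes were called higher and 7.85% lower. Of the 18 genes 4 were lower there, Vav1 (-0.25), Gng2 (-0.31), Rac1 (-0.24) and Pik3cg (-0.22), and 2 higher, Plcb3 (0.29) and Fgr (0.18). Of these calls between the doses, that of Gng2 alone was kept in 8 of 8 fits that leave out a library. Of 10 tested genes of receptor desensitization, the kinase Grk5 was higher at 50 µM (0.43) and the kinase Grk6 lower (-0.27, kept in 6 of 8 fits that leave out a library, with a highest adjusted p of 0.0831 without vehicle replicate 3). With 10 µM IPA no gene of either list was called, where 0.329% of all tested genes were called higher and 0.0806% lower.

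Proteases that release or trim chemokines were called in both directions at 50 µM against vehicle, where 7.00% of all tested genes were higher and 6.50% lower. Adam17, a sheddase of the membrane-bound ligands, was lower with 50 µM IPA (log2 fold change -0.40 against vehicle, edgeR adjusted p = 0.0015), beside the lower Cxcl16 and the higher Cx3cl1. Adam10, of the same list, was not called (-0.08, edgeR adjusted p = 0.477), and shedding was not measured. The neutrophil elastase gene Elane, also a marker above, and Ctsg (-0.44) were lower, and the metalloproteases Mmp9 (0.33) and Mmp12 (0.51) higher, so that 3 of 8 were lower and 2 higher. Ctsg was kept in 5 of 8 fits without a library, with a highest adjusted p of 0.108 without vehicle replicate 3. Mmp12 was the one gene of the list called with 10 µM IPA (0.45, edgeR adjusted p = 0.0311), a call kept in 2 of 8 such fits (highest adjusted p of 0.155 without 10 µM replicate 2). In that comparison 0.329% of all tested genes were called higher and 0.0806% lower.

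Among genes that induce or destroy the ligand transcripts, counts are read beside the 7.00% of all tested genes called higher and 6.50% called lower with 50 µM IPA than in vehicle. Of 13 genes of NF-kB induction and transcript decay, 0 were higher and 1 lower with 50 µM IPA than in vehicle, Il1b, an inducer of the CXCR2 ligands, which fell from 261 to 142 CPM (log2 fold change -0.87, edgeR adjusted p = 0.0004). Between the doses Il1b was lower (-0.72) and Tnf higher (0.68). Cxcl3, with the kappaB match printed above, was higher in both comparisons, and Cxcl1 and Cxcl2, with the same match, were called in neither. Of 11 interferon genes tied to Cxcl10, 2 were higher with 50 µM IPA than in vehicle, Stat2 (0.47) and Mx1 (0.85), and 1 lower, Ifit2 (-0.70). The Stat2 call was kept in 3 of 8 fits that leave out a library (highest adjusted p of 0.0798 without 50 µM replicate 4) and the Mx1 call in 2 of 8 (0.113 without 50 µM replicate 3). Between the doses, where 7.52% of all tested genes were called higher and 7.85% lower, 3 were higher and 4 lower, Ifit3 (-1.37) and Rsad2 (-0.66) among the latter.

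The genes whose log2 CPM was most like that of each member over the 12 libraries are a description of libraries that share groups and depth. Cxcl16 was most like H2-Ab1 (Pearson r = 0.98) and H2-Aa (0.98), both chains of MHC class II, and Ppp1cc (0.97). Cxcl2 was most like Tet2 (0.98), Map3k8 (0.97), a kinase of the NF-kB pathway, and Akap9 (0.97). Cxcl3 was most like Tmem126b (0.94), Batf3 (0.93), a factor of dendritic cells, and Pacsin1 (0.92). Cxcr2 was most like Chrm3 (0.97), Ap3s1-ps1 (0.96) and Rab6a (0.96). Cxcr4 was most like AC140186.1 (0.93), G2e3 (0.93) and S100a9 (0.92), a neutrophil marker. Cx3cr1 was most like Nanos1 (0.95), Tcf19 (0.94) and Nfe2l2 (0.94). Cxcl14 was most like B3galnt1 (0.94), Evl (0.92) and Cav1 (0.91). Among the genes most like Cxcl1 were Gm16894 (0.90) and Igfbp7 (0.86). The scarce Cxcr1, at most like Gm5910 (0.93), Gm8483 (0.90) and Cd276 (0.89), and Cxcl10, like Gm25047 (0.82), Fam167a (0.79) and Dcun1d4 (0.79), rest on few reads.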

How the data were processed

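Per the labels and methods, the authors removed adapters with Atropos, used HISAT2 2.2.1 for alignment to mm10, and obtained counts of reads per gene with featureCounts 2.0.1. The deposited values are raw counts, whole numbers with no normalization or filter. The kit was stranded, and the strand setting of the counting is not stated. One 10 µM library was identified by its library name, because its title repeats another's. No library was a copy of another.

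Genes were kept if over 0.5 CPM in 2 or more of the 12 libraries, and tested with edgeR 4.0.16 in R 4.3.3 (TMM, glmQLFit, glmQLFTest; group only), in 3 comparisons of 8 libraries, with Benjamini-Hochberg adjustment over all 14894 genes and a threshold of 0.05. The scripts were tested on simulated data. RPKM used the joined exons of GENCODE M21. Promoters are those of RefSeq. Alternatives were DESeq2 1.42.0, limma-voom (limma 3.58.1), other size factors and filters, all libraries in the fit, a replicate block, an offset for the trend on exon length, and leaving out each library.

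The 10 members and the lists (7 of the chemokine system and 11 of cell type markers) were chosen with earlier results of these data known. Named are all members, called genes of the lists (at most 6 per list and comparison), and for each member the 3 genes of highest Pearson r among those with a mean of at least 1 CPM (log2, pseudocount 0.5), except that some names are not reported here. At 50 µM against vehicle, the lists of mast cell and basophil (1 higher, 1 lower of 6 tested markers), eosinophil (1 higher of 5), stromal and endothelial (1 lower of 5), T and NK cell (0 of 2) and erythroid markers (0 of 2) are given here only, and their part in the members' levels was not tested. These counts stand beside 7.00% of all tested genes called higher and 6.50% called lower.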

Additional observations from a re-analysis of the deposited data

How the results depend on the processing

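The count of members called with 10 µM IPA moved from 0 to 1, Cxcl14, with DESeq2, without the filter on low counts and with all 12 libraries in one fit. The counts at 50 µM stayed at 5 to 6 against vehicle and 3 to 5 against 10 µM IPA under all alternatives, and with at least 10 counts in every library Cxcl14 was not tested against vehicle. Over all members and comparisons, 432 alternative values kept direction and call, 4 gained a call, 5 lost one and 34 changed sign. All of those that changed sign belonged to differences that were not called. These were, by alternative, at 10 µM Cxcl2 with limma-voom (0.033) and with the replicate block (0.027), at 50 µM against vehicle Cxcr1 with limma-voom (-0.031), and between the doses Cxcl1 with the exon length offset (-0.015). Fits without one library ranged at 10 µM from -0.10 to 0.49 for Cxcl1, -0.28 to 0.21 for Cxcl2, -0.090 to 0.41 for Cxcl10, -0.11 to 0.068 for Cxcr2 and -0.19 to 0.049 for Cx3cr1. At 50 µM against vehicle they ranged from -0.018 to 0.51 for Cxcl1, -0.15 to 0.32 for Cxcl2 and -0.21 to 0.36 for Cxcr1. Between the doses they ranged from -0.22 to 0.29 for Cxcl1, -0.041 to 0.27 for Cxcl2 and -0.26 to 0.023 for Cxcl14. The cause was not tested. For called genes of the lists, 1362 alternative values kept the call, 142 lost it and 0 changed sign. Correlations of same-numbered libraries lay between -0.43 and 0.24, and those of other libraries between -0.42 and 0.44. These values cannot tell whether replicate numbers pair the libraries. For cell percentages in this type of culture, the paper used a repeated-measures test across doses. The replicate block called 0, 6 and 4 members, as without it, and 3, 1830 and 2200 genes in all, against 61, 2010 and 2289 without it. With 10 µM IPA, edgeR had 1308 genes at an unadjusted p under 0.05, and DESeq2 called 250. Read depth limits Cxcl14, Cxcr1, Cxcl1 and Cxcl10, with between 3 and 122 reads per library.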
